A study of Mus musculus with 8 samples.

Results

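A set of 44 genes of amino acid supply and tRNA charging was followed in CD4+ T cells described as CD44+, a surface marker of helper T cells that have met antigen. The genes were taken by symbol: the transcription factor gene Atf4 with stress factors and effectors of its pathway (7 genes), enzymes that make asparagine, serine, folate intermediates and proline (10), amino acid transporters (8) and cytosolic aminoacyl-tRNA synthetases (19). All 44 were found among the 11841 symbols of the deposited table, each on a single line, and 42 passed the filter for testing. The cells came from lymph nodes that drain the skin, from mice of strain BALB/cAJcl that were wild type (WT) or carried the genotypes T-bet-/-, STAT6-/- or T-bet-/- STAT6-/-, here called T-bet-null, STAT6-null and, for the last, double-null. Cells of all 4 genotypes, WT included, received PMA and ionomycin for 2 h, a treatment that bypasses the T cell receptor, so every level below is that of stimulated cells. Each genotype had 2 RNA libraries, 8 in all. The exons removed, the age and sex of the mice, and whether animals were pooled are not stated in the labels.

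ATF4 is a transcription factor of the integrated stress response. When amino acids run short, uncharged tRNA activates the kinase GCN2, which phosphorylates the initiation factor eIF2; general translation falls, while the Atf4 message is translated more. ATF4 then raises genes that bring in or make amino acids and load them onto tRNA. Activated T cells are known to increase amino acid uptake and protein synthesis, and ATF4, MYC and mTORC1 take part in that change. Because ATF4 is controlled largely at translation, its transcript level need not follow its protein level, which was not measured here.

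Levels are given in FPKM, fragment numbers divided by transcript length and by library size, which allows comparison between genes per length. Tbx21, which encodes T-bet, stood at 30.8 and 31.6 FPKM in WT, 1.44 and 1.54 in T-bet-null, 101.9 and 92.1 in STAT6-null and 2.49 and 2.09 in double-null libraries, and Stat6 at 89.9 and 90.9, 88.8 and 89.8, 31.6 and 29.0, and 29.6 and 26.9 in the same order, so each targeted transcript was lowest where the labels say that it was deleted. The T cell genes Cd4 (195.3 and 207.6 FPKM in WT, 88.1 to 127.5 in the mutants) and Cd3e (359.7 and 376.4, and 227.9 to 344.8) and the activation marker Cd44 (250.8 and 281.8, and 354.8 to 441.8) were present in every library, and for each of them WT and mutant libraries did not overlap. The 8 listed CD4 T cell markers of 9 summed to 2660.1 and 2609.6 FPKM in WT. Their sums were 2165.2 and 2135.9 in T-bet-null, 2576.1 and 2567.2 in STAT6-null and 2189.9 and 2368.5 in double-null libraries. The WT libraries stood apart from all mutants: Pearson r of log2(FPKM + 1) across genes was 0.9341 to 0.9536 between WT and mutant libraries, 0.9829 to 0.9888 between mutant genotypes and 0.9965 to 0.9977 within genotypes. The 2 listed erythroid markers summed to 441.9 and 223.7 FPKM in WT and to 2.63 to 7.48 in the mutants; the other markers of that list were not used here. The 6 listed myeloid and dendritic markers of 9 summed to 182.1 to 187.7 in WT and 98.5 to 138.8 in the mutants, the 2 listed stroma and endothelium markers of 6 to 24.2 to 26.0 and 8.15 to 11.3, and the 4 listed Y-linked genes to 103.7 to 110.0 and 29.5 to 67.9. B cell markers (6 listed of 7) summed to 4.80 to 7.57 in WT and 2.15 to 8.09 in the mutants, NK markers (2 of 4) to 0.741 to 1.08 and 0.818 to 1.77, and Cd8b1, the only CD8 marker listed, to 4.90 to 5.60 and 3.02 to 4.46. These differences run along with every comparison with WT below, and their part in it was not tested. The Y-linked sum also differed between the double-null libraries, at 29.5 in replicate 1 and 67.9 in replicate 2, beside 33.7 to 43.2 in the single mutants. That difference enters the comparisons of double-null cells with the single mutants, and its part there was not tested either.

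How did the genes of amino acid supply differ from WT? Most synthetase genes and the leucine and glutamine transporter genes were higher in all 3 mutant genotypes. The serine and mitochondrial folate route was split, with Phgdh, Psph and Mthfd1l lower in all 3. Mthfd2 of the same route was higher in all 3, and Psat1 and Shmt2 were higher in T-bet-null and double-null cells. In T-bet-null cells 27 of the 42 tested members were called higher and 11 lower (limma adjusted p under 0.05). Of all 10281 genes tested in that comparison, 34.2% were called higher and 36.3% lower, against 64.3% and 26.2% of the members; in either direction it was 70.6% of all genes. In STAT6-null cells 27 members were higher (64.3%, against 34.9% of all genes) and 9 lower (21.4%, against 36.1%; in either direction 71.0% of all genes). In double-null cells 29 were higher (69.0%, against 36.3%) and 9 lower (21.4%, against 36.7%; in either direction 73.0% of all genes). The median log2 fold change of the members was 0.46, 0.36 and 0.59 in the 3 comparisons, beside -0.02, -0.01 and 0.00 over all genes tested.

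The 3 comparisons share the same WT libraries, so they are not independent of each other. Chac1 is counted among the members called higher, although it passed the filter only through libraries in which it was high. Of the 42 members, 25 were called higher in all 3 mutants and 8 lower in all 3, that is 59.5% and 19.0%, against 27.0% and 27.2% of all genes tested. In a bulk sample, a lower level may come from fewer cells that express a gene or from less RNA per cell, and these cannot be told apart. Of the 38, 36 and 38 members called in the 3 comparisons, 34, 33 and 36 kept their call under every alternative in which they were tested.

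**Figure D1:**
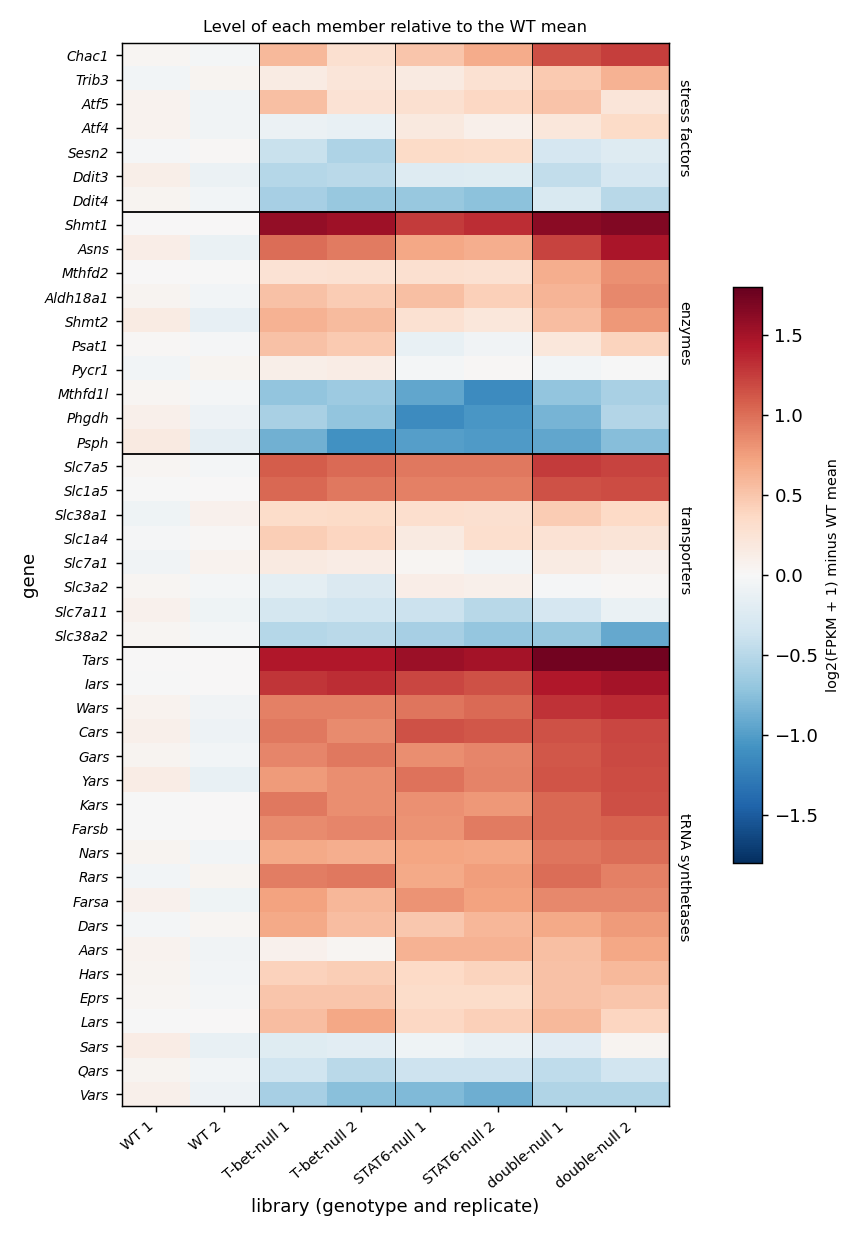
Level of each of the 44 genes (rows, grouped by role and ordered by the double-null mean) in each of the 8 libraries (columns), as log2(FPKM + 1) minus the mean of the 2 WT libraries; red is above and blue below the WT mean. Tars, Iars and Shmt1 are among the darkest red rows, Psph, Phgdh and Mthfd1l are blue in all 6 mutant libraries, and Sesn2 is red in the 2 STAT6-null libraries alone.

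**Figure D2:**
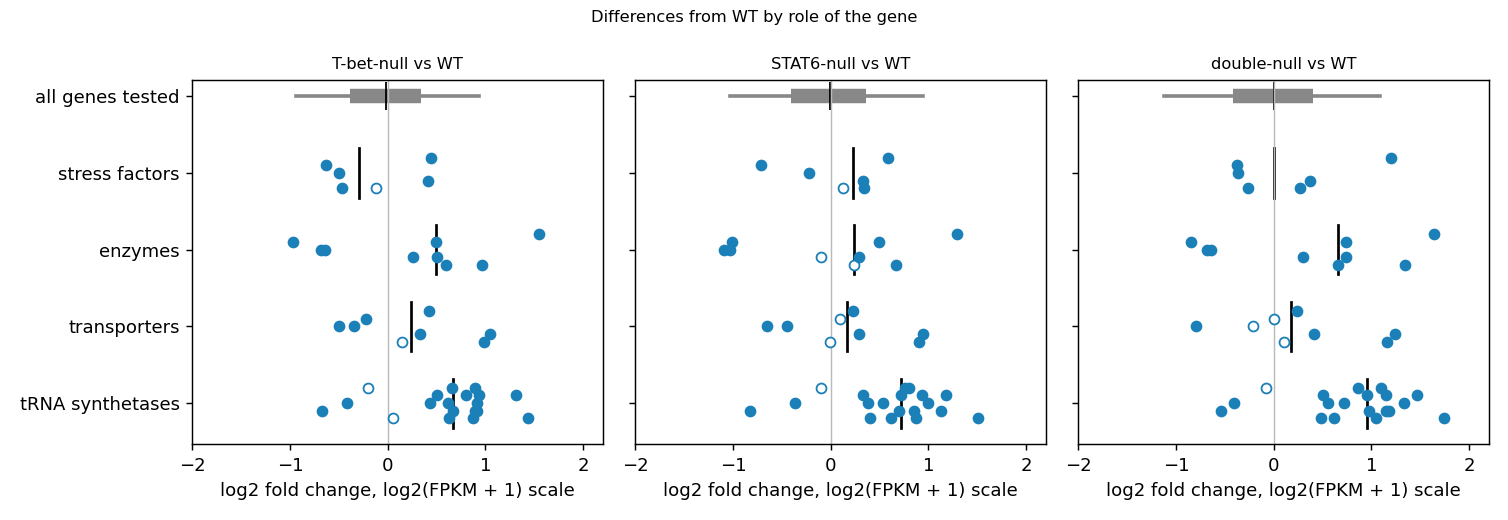
Log2 fold change against WT, on the log2(FPKM + 1) scale, in the 3 mutant genotypes (panels). Points are tested members by role (filled: called at an adjusted p under 0.05; open: not called), black bars are role medians, and the grey bar spans the 5th to 95th percentile of all 10281 genes tested, thick between the quartiles; the synthetase medians lie at 0.67, 0.72 and 0.96.

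Short stretches of promoter are shown here for 5 of the genes, because they hold the core of the C/EBP-ATF response element, the sequence that ATF4 is known to bind with a C/EBP partner. The letters searched were TGATGNAA on both strands, in windows of 250 bases before to 50 bases after the RefSeq transcript start (GRCm38.p6, the assembly behind mm10). Windows were at hand for 34 of the 44 members. The letters were found in 11 of these 34 genes (32.4%), against 3.97% of all 32851 windows and 2.81% of the 7393 tested genes that had a window. The members were chosen in part as ATF4 targets, and ATF4 is known to bind this sequence. A share above that of all windows was thus built into the list and is no result about these cells. Each stretch is written 5′ to 3′ along the gene's own strand, ends before the transcript start, and has the match in capitals, either as searched or read from the other strand.
Asns, chr6:7693210-7693262, minus strand: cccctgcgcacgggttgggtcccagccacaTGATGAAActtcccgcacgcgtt
Tars, chr15:11399659-11399703, minus strand: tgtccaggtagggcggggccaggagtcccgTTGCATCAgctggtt
Gars, chr6:55037941-55038000, plus strand: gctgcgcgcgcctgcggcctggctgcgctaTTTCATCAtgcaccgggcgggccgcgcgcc
Slc7a11, chr3:50443623-50443709, minus strand: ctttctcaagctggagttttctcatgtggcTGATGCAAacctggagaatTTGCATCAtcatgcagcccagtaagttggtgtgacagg
Chac1, chr2:119351019-119351086, plus strand: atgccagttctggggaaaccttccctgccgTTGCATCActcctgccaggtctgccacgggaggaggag
The match begins 23 bases before the start in Asns, 15 in Tars, 30 in Gars and 193 in Chac1, and Slc7a11 holds a pair of facing matches at 66 and 47 bases. The Slc7a11 stretch lies inside the whole span of that gene (chr3:50364936-50499087), before an internal transcript start. The other stretches lie outside the spans of their genes. The other genes with a match were Aars, Iars, Pycr1, Slc1a4, Trib3 and Yars. Of the 11, 9 were tested, and 7 of those were called higher in all 3 mutants and 0 lower in all 3. Of the others, Slc7a11 was called lower in T-bet-null (-0.34) and STAT6-null cells (-0.45). Aars was called higher in STAT6-null and double-null cells and was not called in T-bet-null cells. Chac1 is among the 7, but it passed the filter only through libraries in which it was high, so a difference was bound to be seen. Slc1a4 is also among the 7, and its STAT6-null and double-null calls were lost as libraries were left out. Of the 23 members with a window but no match, all tested, 9 were higher and 7 lower in all 3. Over all genes tested, 27.0% were higher and 27.2% lower in all 3. The members without a window could not be searched. Among them Slc7a5, Slc1a5, Slc38a1, Cars, Hars, Lars, Nars, Rars and Wars were higher in all 3, and Vars was lower in all 3. Whether a match bears on these directions was not tested. The letters CACGTG, the E-box that MYC and other factors bind, were found in 5 of the 34 (14.7%: Farsb, Aars, Iars, Tars and Aldh18a1), against 7.15% of all windows and 12.4% of tested genes with a window. A match is a description of the letters and was not tested for binding.

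Among the stress factors, the Atf4 transcript was called higher in double-null cells and was not called in the single mutants. In all 3 mutants Ddit3 and Ddit4 were called lower and Atf5 and Chac1 higher. Sesn2 was called lower in T-bet-null and double-null cells and higher in STAT6-null cells. Atf4 (chr15:80255184-80257545) stood at 221.5 and 202.5 FPKM in WT, 196.9 and 192.9 in T-bet-null, 238.5 and 226.6 in STAT6-null and 243.9 and 269.2 in double-null libraries. The double-null libraries were highest, the T-bet-null lowest, and no pair of genotypes overlapped. Against WT the log2 fold change was 0.27 ± 0.068 (SE, n = 2 per genotype) in double-null cells, with a limma adjusted p = 0.00552. It was -0.12 in T-bet-null cells (95% interval -0.27 to 0.04, adjusted p = 0.146) and 0.13 in STAT6-null cells (-0.02 to 0.29, adjusted p = 0.107). The STAT6-null difference was called when scaled by median of ratios (0.18, adjusted p = 0.0193) and without WT replicate 1 (0.20, adjusted p = 0.0474).

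Chac1 (chr2:119351242-119354326) encodes an enzyme that degrades glutathione and is a known target of ATF4. It stood at 0.317 and 0.244 FPKM in WT, 0.925 and 0.560 in T-bet-null, 0.816 and 1.04 in STAT6-null and 1.85 and 2.04 in double-null libraries. The double-null libraries lay above all others and WT below all others, while the single mutants overlapped. Chac1 passed the filter only through libraries in which it was high, so a difference was bound to be seen; its log2 fold changes against WT were 0.44, 0.59 and 1.20, and the T-bet-null call was lost without T-bet-null replicate 1 (0.29, adjusted p = 0.0653). At such low levels this scale understates the change. The Chac1 values fell on whole multiples of the value of 1 fragment (within 0.022 of a step), which gave 10 and 8 fragments in WT, 25 and 17 in T-bet-null, 25 and 33 in STAT6-null and 55 and 67 in double-null libraries. Per unit of depth, Chac1 was 6.99 times the WT level in double-null cells (95% interval 4.24 to 12.2), 2.62 times in T-bet-null (1.48 to 4.83) and 3.32 times in STAT6-null cells (1.93 to 5.99). These exact intervals hold the counting error alone.

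Trib3 (chr2:152337425-152344060), a pseudokinase that ATF4 induces and that feeds back on it, did not pass the filter. It lay on steps of 12 and 16 fragments in WT, 17 and 22 in T-bet-null, 20 and 26 in STAT6-null and 33 and 46 in double-null libraries (within 0.016 of a step), at 0.281 to 1.04 FPKM. As with Chac1, the double-null libraries were the highest. Per unit of depth, T-bet-null cells had 1.56 times as much Trib3 as WT (95% interval 0.938 to 2.64, which includes 1) and STAT6-null cells 1.69 times (1.04 to 2.81). The double-null level was 2.91 times that of WT (1.87 to 4.65), 1.86 times that of T-bet-null (1.25 to 2.80) and 1.72 times that of STAT6-null cells (1.18 to 2.53), counting error only.

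Ddit3, which encodes the factor CHOP (chr10:127290793-127296291), stood at 20.9 and 17.9 FPKM in WT, 13.3 and 13.5 in T-bet-null, 16.4 and 16.5 in STAT6-null and 14.0 and 15.5 in double-null libraries. WT lay above every mutant library, with log2 fold changes of -0.50 (limma adjusted p = 0.00046), -0.22 (0.0305) and -0.37 (0.00236). The STAT6-null call ended without WT replicate 1 (-0.12, adjusted p = 0.212) and without STAT6-null replicate 1 (0.0991) or 2 (0.0936). Ddit4, which encodes the mTORC1 inhibitor REDD1 (chr10:59949675-59951770), was at 12.8 and 11.9 in WT, 7.85 and 7.30 in T-bet-null, 7.35 and 6.98 in STAT6-null and 10.0 and 8.44 FPKM in double-null libraries, again with WT on top and with falls of 0.63, 0.71 and 0.38 on the log2 scale.

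Sesn2 (chr4:132492804-132510456), a leucine sensor that restrains mTORC1, was the 1 member that differed from WT in opposite directions in the single mutants. Its levels were 13.0 and 13.3 FPKM in WT, 9.76 and 8.62 in T-bet-null, 17.0 and 16.8 in STAT6-null and 10.5 and 11.0 in double-null libraries. STAT6-null libraries were the highest, T-bet-null the lowest, and the 4 genotypes did not overlap. Against WT it rose by 0.34 ± 0.068 in STAT6-null cells (limma adjusted p = 0.00166) and fell by 0.47 in T-bet-null (0.000259) and by 0.26 in double-null cells (0.00707). Atf5, an ATF4 relative, stood at 2.69 and 2.38 FPKM in WT, 4.16 and 3.24 in T-bet-null, 3.32 and 3.58 in STAT6-null and 4.06 and 3.10 in double-null libraries. The mutants overlapped each other and lay above WT, with log2 fold changes of 0.41 (limma adjusted p = 0.0164), 0.33 (0.0368) and 0.37 (0.0242). The call ended without WT replicate 2 in all 3 comparisons (adjusted p = 0.0916, 0.167 and 0.124). It was also lost without T-bet-null replicate 1 (0.126) or double-null replicate 1 (0.172) in the comparison of that genotype, and for STAT6-null cells without WT replicate 1 (0.0584) or STAT6-null replicate 1 (0.0724) or 2 (0.149).

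**Figure D3:**
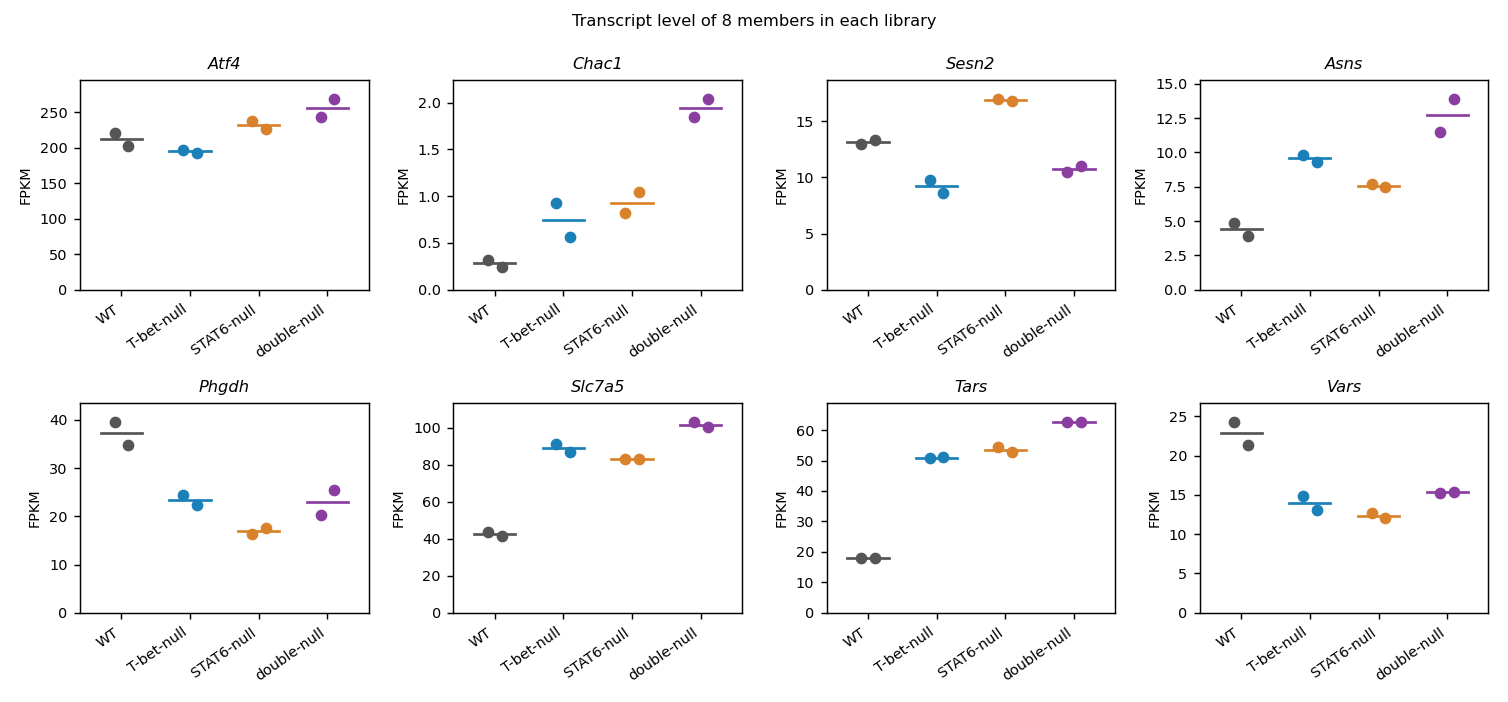
FPKM (vertical axes, linear from 0) of 8 genes in each library, by genotype; points are libraries and bars are means of 2. Chac1, Asns, Slc7a5 and Tars are highest in both double-null libraries, Sesn2 in both STAT6-null libraries, and Phgdh and Vars in both WT libraries.

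The enzymes split by step of the pathway. Asns, asparagine synthetase and a classic ATF4 target whose element is shown above (chr6:7675165-7693209), stood at 4.87 and 3.94 FPKM in WT, 9.80 and 9.33 in T-bet-null, 7.69 and 7.47 in STAT6-null and 11.5 and 13.9 in double-null libraries. All 6 mutant libraries were above WT, the double-null highest, and the genotypes did not overlap. The log2 fold changes were 0.97 ± 0.105 (limma adjusted p = 4.26e-05), 0.67 ± 0.105 (0.000381) and 1.34 ± 0.105 (4.36e-06). Shmt1, the cytosolic enzyme that turns serine into glycine and a folate intermediate (chr11:60788897-60811265), had the largest rises of the enzymes. It was at 10.7 and 10.7 FPKM in WT, 33.9 and 32.8 in T-bet-null, 26.9 and 28.4 in STAT6-null and 35.1 and 36.0 in double-null libraries, with log2 fold changes of 1.55, 1.29 and 1.64. STAT6-null libraries were below the other mutants, and none overlapped WT.

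In contrast, 2 of the 3 genes of serine synthesis from glucose were lower than in WT. Phgdh, which catalyses the committed step (chr3:98313171-98339969), stood at 39.6 and 34.9 FPKM in WT, 24.5 and 22.3 in T-bet-null, 16.4 and 17.5 in STAT6-null and 20.3 and 25.5 in double-null libraries. WT lay above all mutants and STAT6-null below all others, with changes of -0.64 (limma adjusted p = 0.000557), -1.09 (2.01e-05) and -0.68 (0.000335). Psph, the last enzyme of that route (chr5:129765558-129787443), was at 9.93 and 7.80 in WT, 4.40 and 3.61 in T-bet-null, 3.92 and 3.86 in STAT6-null and 4.14 and 4.75 FPKM in double-null libraries, and fell by 0.97, 1.01 and 0.85 on the log2 scale. The mutants overlapped each other and not WT. Exons of Cct6a on the opposite strand cover 26.1% of the exonic bases of Psph, and the strandedness of the libraries is not given, so reads of these genes may be mixed. Psat1, the middle enzyme of the same route, did not go with its neighbours: at 54.0 ± 1.33 FPKM in WT (mean ± SD, n = 2) it was higher in T-bet-null (76.6 ± 1.75, log2 0.50) and double-null cells (66.9 ± 6.41, 0.30) and was not called in STAT6-null cells (50.4 ± 1.57, 95% interval of the log2 difference -0.25 to 0.06), where quantile normalization gave a call (-0.17, adjusted p = 0.0355).

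The folate enzymes of the mitochondrion were split as well. Mthfd1l, which releases formate (chr10:3972892-4167081), stood at 13.0 and 12.4 FPKM in WT, 7.37 and 7.71 in T-bet-null, 6.15 and 5.24 in STAT6-null and 7.40 and 8.16 in double-null libraries. WT was on top, STAT6-null at the bottom, and the falls were 0.68, 1.03 and 0.64 on the log2 scale. Mthfd2, which acts just before it, rose from 24.7 ± 0.134 FPKM in WT to 29.9 ± 0.251, 30.4 ± 0.228 and 42.1 ± 3.43 (log2 0.26, 0.29 and 0.74). Shmt2, which acts before Mthfd2, rose in T-bet-null (0.60) and double-null cells (0.66) and was not called in STAT6-null cells (0.24, adjusted p = 0.0654), where it was called with median-of-ratios scaling (0.28, adjusted p = 0.0176), without WT replicate 1 (0.38, adjusted p = 0.01) and without double-null replicate 1 or 2 (adjusted p = 0.0447 in each). Aldh18a1, which opens proline synthesis, rose from 8.40 ± 0.467 FPKM to 12.2 ± 0.429, 12.2 ± 0.663 and 14.8 ± 1.93. Pycr1, which closes it, lay at 0.215 to 0.378 FPKM and was not tested; its T-bet-null libraries, at 0.359 and 0.378, were above the other 6.

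Of the transporters, the pair for large neutral amino acids and for glutamine rose most. Slc7a5, the leucine carrier LAT1 (chr8:121881146-121907686), stood at 43.4 and 41.6 FPKM in WT, 91.5 and 87.1 in T-bet-null, 83.3 and 82.9 in STAT6-null and 103.2 and 100.2 in double-null libraries. No genotypes overlapped, WT was lowest and double-null highest. Its log2 fold changes were 1.05 ± 0.052 (limma adjusted p = 5.67e-07), 0.95 ± 0.052 (7.88e-07) and 1.24 ± 0.052 (1.54e-07). Slc1a5, the glutamine carrier ASCT2 (chr7:16781334-16798274), was at 74.8 and 75.3 FPKM in WT, 154.8 and 146.0 in T-bet-null, 141.2 and 141.3 in STAT6-null and 167.5 and 170.9 in double-null libraries, in the same order of genotypes, and rose by 0.99, 0.90 and 1.16.

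The heavy chain Slc3a2, without which LAT1 does not reach the cell surface, did not rise with Slc7a5. Slc3a2 was at 142.1 ± 4.83 FPKM in WT, with 122.1 ± 4.89 in T-bet-null, 152.6 ± 1.85 with STAT6 alone deleted and 141.8 ± 2.80 in double-null cells. It was called only in T-bet-null cells (-0.22, adjusted p = 0.00577), a call lost without T-bet-null replicate 2 (-0.18, adjusted p = 0.0646). In STAT6-null cells its difference of 0.10 (adjusted p = 0.114) was called with quantile normalization (0.12, adjusted p = 0.0465) and when scaled by median of ratios (0.14, adjusted p = 0.0247). In double-null cells the 95% interval was -0.12 to 0.12.

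Slc38a2, the carrier SNAT2 that takes up small neutral amino acids (chr15:96687392-96699728), was the 1 transporter gene among the members called lower in every mutant. It stood at 70.9 and 67.6 FPKM in WT, 48.2 and 49.4 in T-bet-null, 45.5 and 42.3 in STAT6-null and 42.9 and 36.1 in double-null libraries, with WT well above the rest, and changed by -0.50, -0.65 and -0.80. Slc38a1, a relative with similar substrates, rose from 119.2 ± 9.90 FPKM by 0.33, 0.29 and 0.41. Slc7a11, the cystine carrier whose facing elements are shown above (chr3:50364936-50499087), was at 1.95 and 1.66 FPKM in WT, 1.24 and 1.18 in T-bet-null, 1.14 and 0.985 in STAT6-null and 1.28 and 1.59 in double-null libraries. Each mutant library was below both WT libraries, with changes of -0.34, -0.45 and -0.21. The double-null difference was not called (adjusted p = 0.0782), but was without double-null replicate 2 (-0.30, adjusted p = 0.0379), and the T-bet-null call ended without WT replicate 1 (-0.27, adjusted p = 0.0791) or T-bet-null replicate 2 (-0.33, adjusted p = 0.0522).

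Slc1a4, a serine and alanine carrier, lay at 1.26 to 2.13 FPKM and was called higher in each mutant (0.42, 0.23 and 0.24). Without WT replicate 1 the STAT6-null and double-null calls of Slc1a4 were lost (adjusted p = 0.117 and 0.10). The STAT6-null call also ended without WT replicate 2 (0.0579) or STAT6-null replicate 2 (0.174), and the double-null call without double-null replicate 1 (0.0759) or 2 (0.0565). Slc7a1, the carrier of arginine and lysine, was not called against WT in any mutant, at 71.1 ± 4.72 FPKM in WT and 70.5 ± 3.19 to 78.8 ± 1.00 in the mutants; the 95% intervals were 0.00 to 0.29, -0.16 to 0.13 and -0.03 to 0.25. Without WT replicate 2, Slc7a1 was called higher in T-bet-null (0.21, adjusted p = 0.0229) and double-null cells (0.18, adjusted p = 0.0429).

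The cytosolic tRNA synthetases, each of which loads its amino acid onto tRNA, were mostly higher: 15, 16 and 16 of 19 were called higher in the 3 comparisons with WT (34.2%, 34.9% and 36.3% of all genes were), and 2 lower in each (36.3%, 36.1% and 36.7%), with medians of 0.67, 0.72 and 0.96. Threonyl-tRNA synthetase, Tars (chr15:11383663-11399658), rose most, from 18.1 and 18.1 FPKM in WT to 50.8 and 51.0 in T-bet-null, 54.4 and 52.7 in STAT6-null and 62.6 and 62.7 in double-null libraries. Replicates lay close together, and the double-null level was 3.33 times that of WT on the log2(FPKM + 1) scale (1.74 ± 0.048, limma adjusted p = 3.96e-08, n = 2 per genotype); the single mutants gave 1.44 and 1.51. The isoleucyl enzyme Iars (chr13:49682130-49734267) stood at 10.3 and 10.4 FPKM in WT, 26.8 and 27.6 in T-bet-null, 25.1 and 24.2 in STAT6-null and 29.9 and 31.1 in double-null libraries, rises of 1.31, 1.18 and 1.47. It had the same order of genotypes as Slc7a5, with no overlap.

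Wars, the tryptophanyl enzyme (chr12:108860030-108894175), was at 9.94 and 8.93 FPKM in WT, 18.6 and 18.6 in T-bet-null, 19.4 and 20.2 in STAT6-null and 24.8 and 25.4 in double-null libraries. Wars is also known as an interferon-induced gene, and it was higher in each mutant by 0.91, 1.00 and 1.33 on the log2 scale. Cars, the cysteinyl enzyme (chr7:143557230-143600090), was at 7.32 and 6.39 in WT, 14.1 and 13.1 in T-bet-null, 16.4 and 16.0 in STAT6-null and 16.4 and 17.1 FPKM in double-null libraries, and rose by 0.89, 1.13 and 1.18. Its T-bet-null libraries lay between WT and the others, which met at 16.4. Gars, the glycyl enzyme with the element shown above, rose from 22.1 ± 1.14 FPKM in WT to 42.5 ± 1.30, 40.8 ± 0.842 and 50.4 ± 1.69. The others called higher in all 3 mutants were Dars, Eprs, Farsa, Farsb, Hars, Kars, Lars, Nars, Rars and Yars, for aspartate, glutamate with proline, phenylalanine (both subunits), histidine, lysine, leucine, asparagine, arginine and tyrosine. Their double-null rises ran from 0.48 (Lars) to 1.15 (Yars).

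Members of the synthetase family went the other way too. Vars, the valyl enzyme (chr17:35000907-35016329), stood at 24.3 and 21.4 FPKM in WT, 14.8 and 13.1 in T-bet-null, 12.7 and 12.0 in STAT6-null and 15.3 and 15.4 in double-null libraries. WT was above all mutants, and the falls were 0.67, 0.83 and 0.54 on the log2 scale. Qars, the glutaminyl enzyme, fell from 37.3 ± 1.96 FPKM to 27.6 ± 1.72, 28.5 ± 0.186 and 27.9 ± 1.52, and Sars, the seryl enzyme, was not called in any mutant (95% intervals -0.43 to 0.03, -0.33 to 0.13 and -0.31 to 0.15). Sars was called lower in T-bet-null cells with quantile normalization (-0.26, adjusted p = 0.026) and without WT replicate 2 (-0.33, adjusted p = 0.0249). Aars, the alanyl enzyme (chr8:111027778-111055569), was higher in both genotypes that lack STAT6: it was at 11.4 and 10.4 FPKM in WT and 11.5 and 11.2 in T-bet-null libraries, and at 17.4 and 17.3 in STAT6-null and 16.3 and 18.3 in double-null libraries. The libraries with STAT6 did not overlap those without it. Aars rose by 0.62 in STAT6-null and by 0.62 in double-null cells and gave 0.05 in T-bet-null cells (95% interval -0.11 to 0.22). Exons of Exosc6 on the same strand cover 23.1% of the exonic bases of Aars, so part of this signal may be that of Exosc6.

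How did double-null cells differ from each single mutant, a comparison that does not use WT? The double-null cells had more of many of these transcripts. Against T-bet-null cells, 16 of 42 members were called higher and 1 lower, 38.1% and 2.38%, where 16.4% and 16.2% of all genes were (32.6% in either direction). Against STAT6-null cells 20 were higher and 1 lower, 47.6% and 2.38%, where 11.3% and 8.63% of all genes were (19.9% in either direction). Both comparisons share the double-null libraries. The differences were small, with medians of 0.15 and 0.22. On the log2(FPKM + 1) scale 0 members reached 2-fold. Per unit of depth, Chac1 was 2.67 times the T-bet-null level (95% interval 1.86 to 3.88, counting error only) and 2.10 times the STAT6-null level (1.53 to 2.93). Chac1 passed the filter only through libraries in which it was high, so a difference was bound to be seen.

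Against T-bet-null cells, 6 members that passed the filter in every genotype were called under every alternative run: Aars (0.56, limma adjusted p = 0.000705), Mthfd2 (0.48, 0.000776), Wars (0.41, 0.00167), Atf4 (0.39, 0.00328), Nars (0.31, 0.00379) and Tars (0.29, 0.00246). Chac1 (0.77, 0.00162) was called wherever it was tested, but it passed the filter through its double-null libraries and was bound to differ; it is included in the counts of calls above and is no support for them. Each was higher in both double-null libraries than in both T-bet-null libraries. Against STAT6-null cells, 6 members were: Asns (0.67, limma adjusted p = 0.00318), Mthfd2 (0.45, 0.0016), Psat1 (0.40, 0.00497), Shmt1 (0.35, 0.00287) and Slc7a5 (0.29, 0.006) were higher and Sesn2 was lower (-0.60, 0.000633). Mthfd2 was thus the 1 member called above both single mutants under every alternative, at 39.6 and 44.5 FPKM in double-null libraries against 29.7 to 30.5 in the single mutants.

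The counts rest on single libraries in part. The 17 calls against T-bet-null cells became 10 without T-bet-null replicate 1, 7 without T-bet-null replicate 2 and 10 without double-null replicate 2. The 21 calls against STAT6-null cells became 8 without STAT6-null replicate 1 and 9 without STAT6-null replicate 2.

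**Figure D4:**
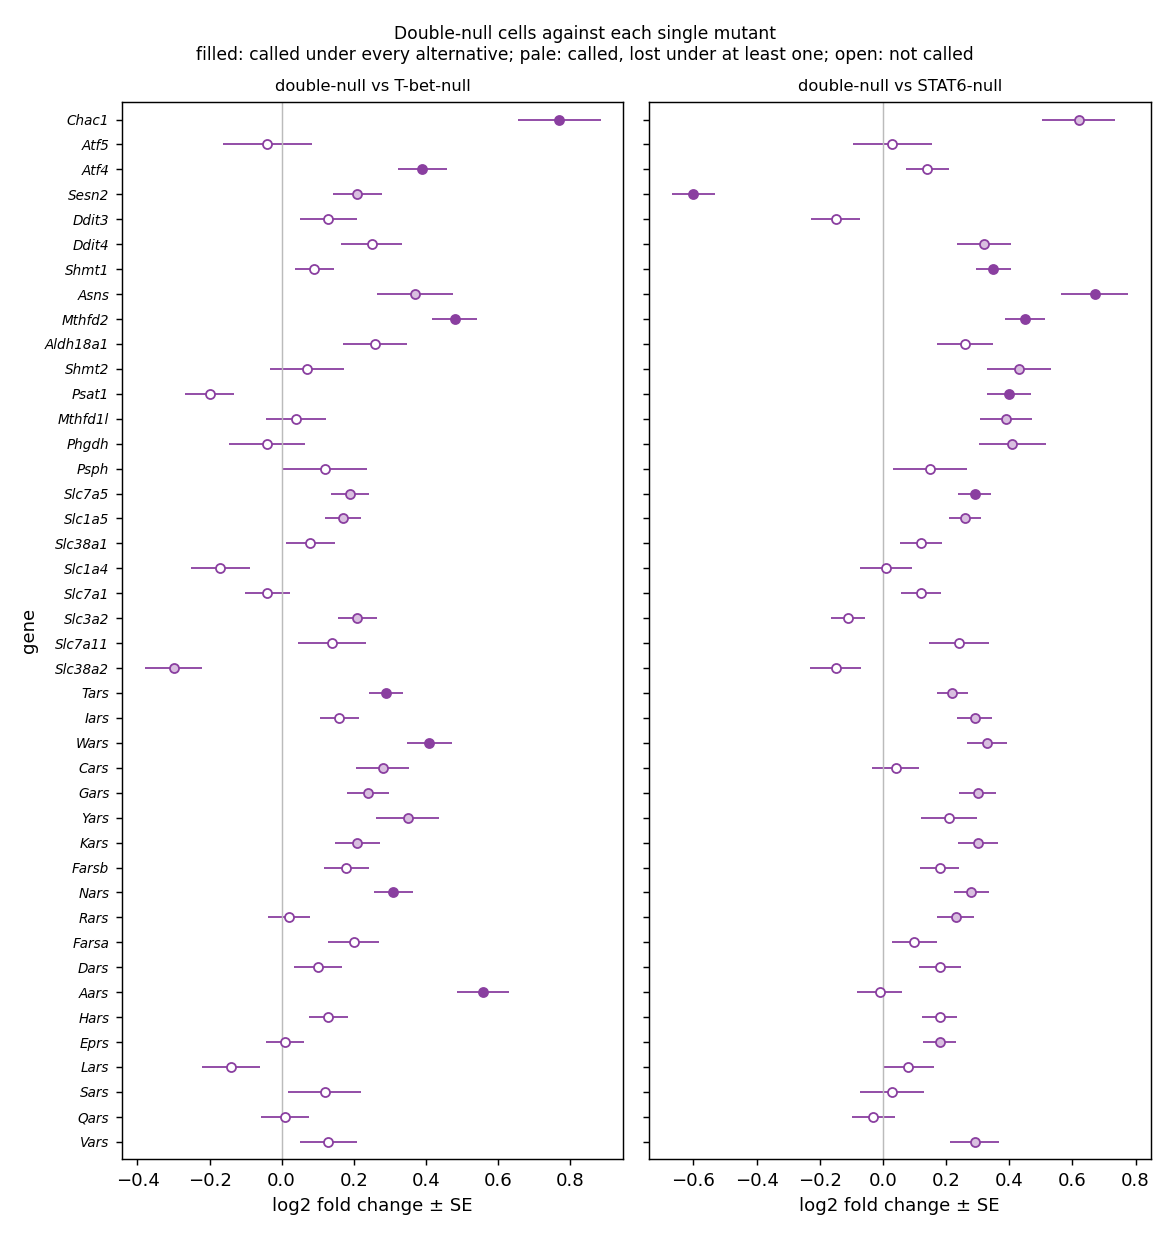
Log2 fold change ± SE (horizontal axes, log2(FPKM + 1) scale) of each tested member in double-null cells against T-bet-null cells (left) and STAT6-null cells (right). Most points lie to the right of 0; the filled points are the 7 (Chac1 included) and 6 calls kept under every alternative in which they were tested, among them Sesn2 at -0.60 on the right.

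How did STAT6-null cells differ from T-bet-null cells? Here the members went both ways, 6 higher and 7 lower in STAT6-null cells (14.3% and 16.7%, where 12.3% and 14.9% of all genes were, and 27.2% in either direction), which is close to the background. The enzymes gave 0 higher and 5 lower of 9. The calls kept under every alternative were those of Sesn2 (0.82, limma adjusted p = 5.81e-05), Aars (0.57, 0.000607) and Slc3a2 (0.32, 0.00274), higher in STAT6-null cells, and Psat1 (-0.60, 0.000373), lower. Sesn2 was at 17.0 and 16.8 against 9.76 and 8.62 FPKM, with no overlap. Atf4 gave 0.25 (limma adjusted p = 0.0247), a call lost with quantile normalization (0.12, adjusted p = 0.163) and without either library of either genotype (adjusted p = 0.0657 to 0.142). The 13 calls became 5 without T-bet-null replicate 1, 6 without T-bet-null replicate 2, 5 without STAT6-null replicate 1 and 6 without STAT6-null replicate 2.

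Did the effect of STAT6 loss depend on T-bet? The interaction, the STAT6 effect in T-bet-null cells minus that in T-bet-sufficient cells, was called positive for 10 members and negative for 19 of 42 (23.8% and 45.2%, where 29.6% and 27.7% of all genes were, and 57.3% in either direction). It was called negative for 15 of the 19 synthetase genes, with a median over the 19 of -0.56 beside 0.01 over all genes. For Tars, STAT6 loss gave 1.51 with T-bet present and 0.29 without it, a difference of -1.22 (limma adjusted p = 6.62e-06). For Psph the corresponding values were -1.01 and 0.12, a difference of 1.13 (limma adjusted p = 0.000549). WT enters the interaction directly, so an offset shared by both WT libraries and a non-additive effect of the losses cannot be told apart.

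Other genes of these pathways, not among the 44, were read from lists of textbook members. The accessory genes of the synthetase complex and tRNA traffic (7 genes) had 4 called higher in all 3 mutants (57.1%, against 27.0% of all genes) and 0 lower (against 27.2%). Xpot, the exportin of tRNA, rose from 9.09 ± 0.664 FPKM in WT to 29.2 ± 1.17, 21.9 ± 0.666 and 29.7 ± 0.754. The complex scaffolds Eef1e1 (34.7 ± 0.441 to 94.5 ± 1.46, 85.8 ± 6.97 and 106.0 ± 2.19) and Aimp2 (13.8 ± 0.631 to 33.8 ± 1.06, 36.5 ± 0.994 and 47.0 ± 6.80) rose too. Mars, the methionyl enzyme, rose by 0.42, 0.34 and 0.48, and its STAT6-null call ended without WT replicate 2 (0.24, adjusted p = 0.0727). Of the 17 mitochondrial synthetases, 7 were higher and 5 lower in all 3 mutants (41.2% and 29.4%, against 27.0% and 27.2% of all genes), with medians of -0.09, -0.14 and -0.11. Yars2 was at 1.09, 0.95 and 1.08 and Fars2 at -0.91, -1.02 and -1.07. Lars2 fell in T-bet-null cells (-1.18, limma adjusted p = 0.00126) and had uneven STAT6-null replicates (86.1 ± 34.8 FPKM), so that its STAT6-null difference of -0.14 was -0.56 and called (adjusted p = 0.006) without STAT6-null replicate 2.

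Of 15 genes for the eIF2 kinases, the eIF2 phosphatase and eIF2B, 7 were higher and 3 lower in all 3 mutants (46.7% were higher, against 27.0% of all genes, and 27.2% of all genes were lower). Eif2s1, which encodes the eIF2 subunit that is phosphorylated, rose by 0.86, 0.77 and 1.04, and Eif2b3, a subunit of its exchange factor, by 1.32, 1.15 and 1.53. The kinase gene of the unfolded protein response, Eif2ak3, fell from 7.74 ± 0.249 FPKM to 4.19 ± 0.0826, 3.29 ± 0.446 and 3.97 ± 0.251. Eif2ak4, which encodes the amino acid sensor GCN2, was not called against WT (3.87 ± 0.149 FPKM in WT, 3.28 ± 0.210 to 3.71 ± 0.260 in the mutants); its double-null difference of -0.19 was called without the intensity trend (adjusted p = 0.0399).

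Of 20 further ATF4 targets and partners, 11 were tested, with 1 higher and 3 lower in all 3 mutants (9.09% and 27.3%, against 27.0% and 27.2% of all genes). Nfe2l1, a stress factor of the proteasome, rose by 0.86, 0.86 and 0.92, and the repressor Jdp2 gave -0.71, -0.77 and -1.0. Jdp2 (1.88 ± 0.214 FPKM in WT, 0.433 to 0.757 on average in the mutants) passed the filter only through WT, where it was high, so a difference was bound to be seen. Eif4ebp1, the translation inhibitor 4E-BP1, was at 2.73 ± 0.384 FPKM in WT and rose in double-null cells (5.58 ± 1.12, log2 0.81, limma adjusted p = 0.000961); in STAT6-null cells it gave 0.47 (adjusted p = 0.0187), which was lost without WT replicate 2 (0.117) or STAT6-null replicate 1 (0.0775) or 2 (0.057). Folate and methionine cycle genes (13 tested of 15) had 4 higher and 2 lower in all 3 (30.8% and 15.4%, against 27.0% and 27.2% of all genes), with Mtap, of methionine salvage, at 1.16, 1.85 and 1.68, Gcsh, of glycine cleavage, at 1.21, 1.14 and 1.34, and Gart, of purine synthesis, at 0.99, 0.86 and 1.08. Other amino acid transporters (9 tested of 13) had 2 higher and 2 lower in all 3 (22.2% each, against 27.0% and 27.2%), which is close to the background: Slc7a6 was at 0.82, 0.53 and 0.69, Slc38a6 at 0.53, 0.45 and 0.81 and Slc43a2 at -0.72, -0.82 and -1.06.

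Among genes of mTORC1 and its amino acid sensors (20 tested of 21), 4 were higher and 9 lower in all 3 mutants, where 27.0% and 27.2% of all genes were. The sestrins Sesn3 (45.3 ± 1.22 to 23.4 ± 0.551, 19.7 ± 0.350 and 19.8 ± 0.795 FPKM) and Sesn1 (7.89 ± 0.402 to 4.86 ± 0.109, 3.66 ± 0.105 and 3.07 ± 0.166) fell in every mutant, unlike Sesn2. Rragd, a GTPase that carries amino acid signals to mTORC1, rose from 2.38 ± 0.0828 to 7.61 ± 0.357, 6.58 ± 0.117 and 5.04 ± 0.215 FPKM. Myc, a driver of amino acid transporter genes, stood at 499.1 ± 15.8 FPKM in WT, 417.1 ± 16.3 in T-bet-null, 470.2 ± 35.5 with STAT6 alone deleted and 599.1 ± 11.0 in double-null cells. It was lower in T-bet-null cells (-0.26, limma adjusted p = 0.00742; 0.0676 without T-bet-null replicate 2) and higher in double-null cells (0.26, limma adjusted p = 0.00631), but with quantile normalization the latter was 0.11 (adjusted p = 0.15) and the STAT6-null difference of -0.09 became -0.21 (adjusted p = 0.0118).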

How the data were processed

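The values were made by the authors: the deposited table holds FPKM per gene and library, made with Cufflinks on genome build mm10 per the submitters' processing notes, with RefSeq gene models per the table's own name. Aligner, versions and strandedness: not given in the sources used here. Each of the 11906 lines lies above 0.1 FPKM in all 8 libraries, so genes silent in any library are missing; 43 symbols have several lines, of which the one with the highest mean was kept. Nothing says that the libraries of a genotype are from separate animals or cultures. The p-values therefore reflect the spread between these libraries alone, and that spread may be technical.

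Genes with at least 1 FPKM in at least 2 libraries (10281) were tested with limma 3.58.1 (R 4.3.3) on log2(FPKM + 1), with 1 mean for each genotype over all 8 libraries, an intensity trend and 4 residual degrees of freedom; tests were two-sided and Benjamini-Hochberg adjusted over all genes within each of 7 comparisons, and calls were made at adjusted p below 0.05. Fold changes on this scale understate the change of low genes. Library depth is not printed; from the steps of 671 genes under 0.6 FPKM the relative depth was 0.856 to 1.04, a ratio of 1.22, and a value was read as whole fragments within 0.05 of a step. Most genes showed no such steps, so no count test was run. Exon overlap came from GENCODE M21. The fit and the depth estimate were tested on simulated data. Python 3.11.15, pandas 2.3.3, SciPy 1.17.1 and matplotlib 3.10.9 were used.

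The members, lists and rules were chosen with earlier results of these data known. All 44 genes are named; in each role group values per library are given for the 4 with the largest change against WT and the 2 with the largest interaction, and for Atf4, Ddit3 and Asns, and in the other lists the 3 with the largest change against WT, with Myc, Eif2ak3, Eif2ak4 and Mars. Gene coordinates come from RefSeq on GRCm38.p6, matched for all 44 members, and span the whole gene. Alternatives were another pseudocount (0.1), no filter or one of 5 FPKM, median-of-ratios scaling, quantile normalization, no intensity trend, a replicate block, summed lines, and leaving out each library.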

Additional observations from a re-analysis of the deposited data

Results flagged for a closer look

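For 29 of the 42 tested members, the log2 change on STAT6 loss differed between cells with and without T-bet (limma interaction, adjusted p under 0.05; over all genes tested, 57.3% were called). The values below are the change without T-bet minus the change with T-bet, on the log2(FPKM + 1) scale. All include the WT libraries, so a property shared by both WT libraries and a dependence of STAT6 loss on T-bet cannot be told apart.

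The synthetase genes gave mostly negative values, since STAT6 loss went with a rise where T-bet was present and with a smaller difference where it was absent. They were -1.22 for Tars, -1.02 for Iars, -0.85 for Cars, -0.71 for Rars, -0.69 for Farsb, -0.61 for Gars, -0.59 for Kars and for Yars, -0.58 for Wars, -0.56 for Farsa, -0.54 for Lars, -0.44 for Dars, -0.39 for Nars, -0.32 for Eprs and -0.25 for Hars. Vars (0.96) and Qars (0.39), which were lower than WT in each single mutant, gave positive values.

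Among the enzymes Shmt1 gave -1.20, and Phgdh (1.05), Psph (1.13) and Mthfd1l (1.07) gave positive values. Among the transporters Slc7a5 gave -0.77, Slc1a5 -0.73 and Slc1a4 -0.41, while Slc7a11 gave 0.58 and Slc38a2 0.34. Of the stress factors, Ddit4 gave 0.96, Ddit3 0.35 and Atf4 0.26. The calls of Atf4, Ddit3, Slc1a4, Slc38a2 and Hars were each lost under at least 1 alternative. Atf4 had an adjusted p of 0.0454, and of 0.103 with quantile normalization, 0.0657 without the intensity trend and 0.125 without WT replicate 1.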

How the results depend on the processing

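Of 192 called pairs of a member and a comparison, 144 kept their sign and call under every alternative in which they were tested, and 0 reversed. The counts of called members moved by more than 1.5 times only when 1 library was left out. As libraries were left out, the 17 double-null calls against T-bet-null cells ranged from 7 to 17, against STAT6-null cells the 21 ranged from 8 to 22, and between the single mutants the 13 ranged from 5 to 15. With a library left out, the lone library of that genotype is assumed to vary like the others, and fewer samples are fitted. The labels number the replicates, but same-numbered libraries did not deviate together (r of -0.08988 to 0.09067 over 10281 genes), so the main fit did not pair them. Whether same-numbered libraries were prepared together is not stated in the labels, and this check cannot show it. With the replicate block the counts of called members were 38, 36 and 38 against WT, 18 and 20 for double-null against T-bet-null and STAT6-null cells, 12 between the single mutants and 28 for the interaction. Another scaling moved the median of all genes by at most 0.04.

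Values that changed sign were near 0 or had uneven replicates, and none was called as reported. Against WT, Slc7a1 in STAT6-null cells became 0.03 with median-of-ratios scaling and ran from -0.08 to 0.05 as libraries were left out, positive without WT replicate 2 (0.05) or STAT6-null replicate 2 (0.03). Slc3a2 in double-null cells became 0.03 with that scaling and ran from -0.04 to 0.03, positive without WT replicate 1 (0.03) or double-null replicate 1 (0.02). Aars in T-bet-null cells ran from -0.01 (without WT replicate 2) to 0.11. Sars ran from -0.23 to 0.03 in STAT6-null and from -0.20 to 0.05 in double-null cells, positive without WT replicate 1 in both and without double-null replicate 1 (0.05) in the latter. Lars2 in STAT6-null cells ran from -0.56 to 0.28, positive without STAT6-null replicate 1. Eif2ak4 in T-bet-null cells became 0.00 with quantile normalization and ran from -0.11 to 0.01, positive without T-bet-null replicate 2. The cause was not tested. Depth limits the precision of Trib3 and Chac1, which rest on 8 to 67 fragments a library.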
